A study of Mus musculus with 6 samples.

Results

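The 10 genes described here encode core parts of the Notch pathway: the receptors Notch1, Notch2 and Notch3, the ligands Dll1, Dll3 and Jag1, and the basic helix-loop-helix regulators Hes1, Hes5, Hes6 and Hey1. They were taken by symbol from a table of transcript levels, in which 10 of the 35274 genes carried these symbols and all 10 had a mean of at least 1 TPM (a transcript's share of all transcripts in a library, corrected for length and scaled to a fixed total). The tissue was the dentate neuroepithelium at embryonic day 14 per the labels, which is the strip of the embryonic hippocampus that gives rise to the dentate gyrus. The 3 genotypes were wild type (WT), SOX11f/+ with 1 floxed allele of the SoxC transcription factor gene Sox11, and SOX11f/f with 2 floxed alleles, with 2 libraries each. The sources used here name no Cre driver, strain or shared allele, and the series title gives SOX11 deficiency, progenitor polarity and mossy fibre projections as its subject. It is not stated that replicate libraries are from different embryos. The p-values below therefore measure library-to-library spread, and this spread may be technical.

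Notch receptors are cut when a ligand on a neighbouring cell binds them, and the freed intracellular part joins the DNA-binding protein RBPJ to switch on target genes. In the embryonic brain the targets Hes1 and Hes5 repress proneural genes and keep radial glia, the neural stem cells of the ventricular wall, from turning into neurons. Cells on their way to becoming neurons make the ligand Dll1 and so signal to the progenitors next to them.

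The 4 Hes and Hey proteins carry forms of a short motif near the carboxyl end, through which Hes proteins recruit corepressors of the Groucho/TLE family. The last 45 coding bases of each gene, stop codon included, are shown because they set the 4 regulators apart at this motif, whose codons are in capitals (GENCODE vM21 transcripts, read 5′ to 3′).
Hes1: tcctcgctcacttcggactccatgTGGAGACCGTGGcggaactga
Hes5: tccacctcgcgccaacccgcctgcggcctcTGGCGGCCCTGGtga
Hes6: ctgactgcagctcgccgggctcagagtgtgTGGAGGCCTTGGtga
Hey1: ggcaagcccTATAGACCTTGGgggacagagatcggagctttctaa
Hes1, Hes5 and Hes6 encode Trp-Arg-Pro-Trp and Hey1 encodes Tyr-Arg-Pro-Trp. The motif is the very end of Hes5 (167 residues) and Hes6 (224 residues), while 2 residues follow it in Hes1 (282 residues) and 7 in Hey1 (299 residues).

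Promoter sequences were taken from RefSeq on GRCm38.p6 for the 8 of 10 members found there by symbol, which were all but Hes1 and Hey1. The 250 bases before each start were searched on both strands for TGGGAA, the core of the RBPJ site, for CAGCTG, an E-box that proneural factors can bind, and for CACNAG, the N-box of Hes proteins. A gene counted as holding a motif if any of its promoters did, with 10 promoters for the 8 genes. Percentages are per single promoter. TGGGAA was present at 1 of the 8 genes, Hes5, and in 21.6% of all 32851 promoters. The Hes5 window is printed because it held this motif once on each strand, in capitals, starting 226 and 82 bases before the start (chr4:154960673-154960922, plus strand).
Hes5 upstream: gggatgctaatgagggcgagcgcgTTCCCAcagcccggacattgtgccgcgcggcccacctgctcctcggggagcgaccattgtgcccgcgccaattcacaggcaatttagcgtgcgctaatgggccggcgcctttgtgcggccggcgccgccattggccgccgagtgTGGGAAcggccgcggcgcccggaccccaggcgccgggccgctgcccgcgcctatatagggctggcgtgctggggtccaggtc
The E-box CAGCTG was present at 4 of the 8 genes and in 13.0% of all promoters, and the N-box at 4 of the 8 genes and in 36.7% of all promoters. A site of each is given with the E-box in capitals, since 3 of the 4 genes are the ligands.
Dll1 E-box: tgcattaccataCAGCTGagcgcacaaaga
Dll3 E-box: tccggcatccagCAGCTGc
Jag1 E-box: ccgcgtttcatgCAGCTGatctgaaaggga
Hes6 E-box: cggaagcggctgCAGCTGccaactgtcacg
The stretches lay on the minus strand at chr17:15377047-15377076 for Dll1, chr7:28301786-28301804 for Dll3, chr2:137116585-137116614 for Jag1 and chr1:91414192-91414221 for Hes6, and the E-boxes began 132, 7, 82 and 171 bases before the RefSeq start. The Dll3 and Jag1 stretches lie inside the GENCODE spans of these genes given below, which start further upstream than the RefSeq starts used. A match describes these letters in this window and is no measure of binding.

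The level of Sox11 followed the labelled genotype in all 6 libraries. It was 192 and 130 TPM in wild type, 56.1 and 50.1 in SOX11f/+ and 5.23 and 5.06 in SOX11f/f libraries, and it fell by 4.69 on the log2 scale from wild type to SOX11f/f (SE 0.19, limma adjusted p = 0.00082). The SOX11f/+ difference from wild type was -1.56 (limma adjusted p = 0.11), and it was -1.48 and past the threshold without SOX11f/+ replicate 2 (limma adjusted p = 0.029). Between 18722 and 19408 genes per library were above 0, and a TPM table keeps no read depth. Prox1, which marks the dentate granule lineage, was present in every library, at 175 and 110 TPM in wild type and 54.3 to 82.0 TPM in the floxed libraries. Genes of mature glia were also present despite the stage on the labels, with the astrocyte filament gene Gfap at 268 TPM or more and the myelin gene Mbp at 13.9 to 76.2 TPM. Ttr, made by choroid plexus, was 11259 TPM in SOX11f/+ replicate 1, 6421 in SOX11f/f replicate 1, 184 in SOX11f/f replicate 2 and at most 4.44 in the other 3 libraries. In whole tissue, fewer cells of a type and less RNA per cell cannot be told apart.

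Hes6 and Hes5 were by far the most abundant of the 10 transcripts. Over the 6 libraries Hes6 averaged 93.2 TPM and Hes5 83.6 TPM, and their ranges overlapped. Hey1 (28.8 TPM) and Notch1 (27.4 TPM) came next and overlapped each other, but neither reached the lowest Hes5 library at 71.4 TPM. Dll1 (14.9 TPM), Dll3 (14.4 TPM), Notch2 (9.40 to 21.3 TPM) and Hes1 (11.5 TPM) overlapped one another, and all their libraries lay under the lowest Notch1 library at 23.5 TPM. The highest of them, Notch2 at 21.3 TPM, also lay under the lowest Hey1 library at 22.2 TPM. Notch3 (7.15 TPM) and Jag1 (6.04 TPM) were lowest, and the highest of their libraries, 8.47 TPM for Notch3, was under the lowest Hes1 library, 8.72 TPM. The mean of Hes6 exceeded 87.5% of the 14518 genes tested and that of Jag1 20.7%.

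**Figure D1:**
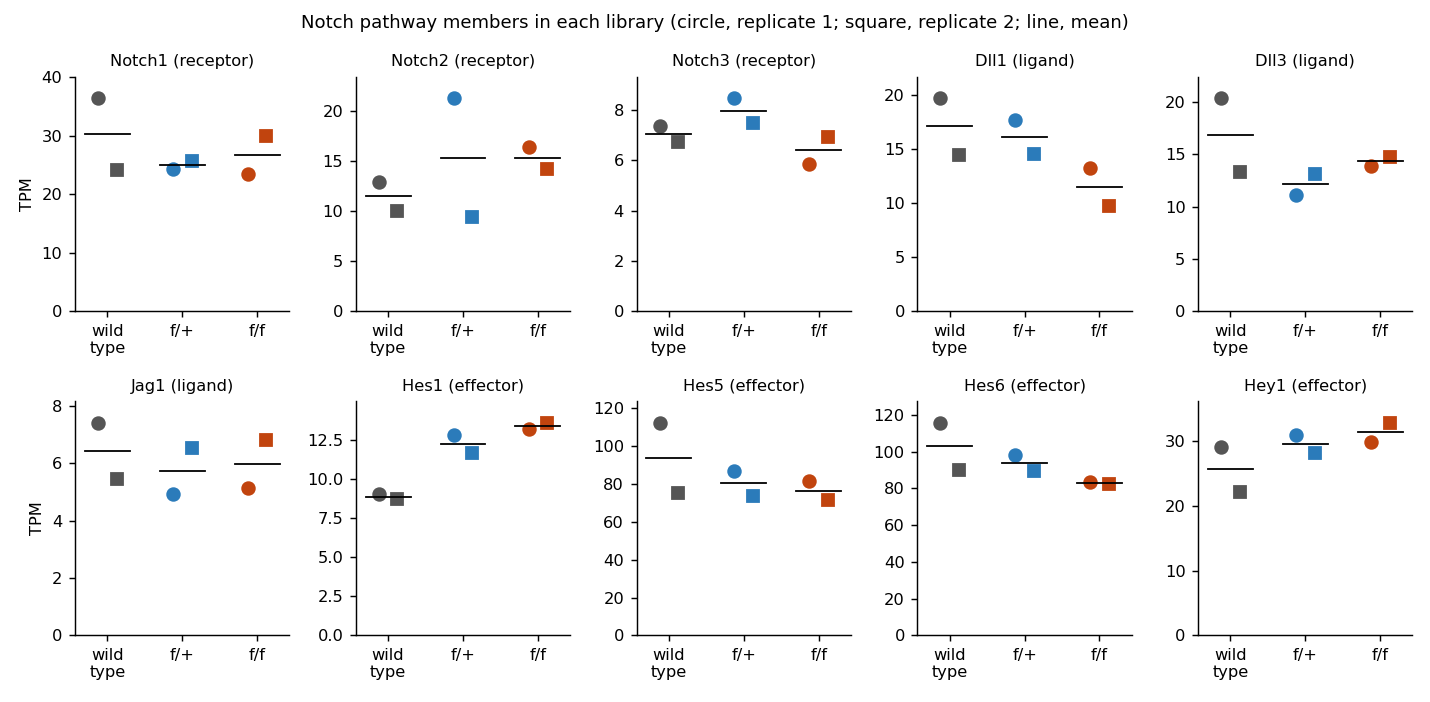
TPM of each of the 10 members (vertical axes, linear from 0) in each library by genotype, with bars at the means of 2 libraries. The 4 Hes1 points of the floxed genotypes sit between 11.7 and 13.6 TPM, above both wild type points at 9.07 and 8.72 TPM, while most other members have overlapping points.

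Against wild type, none of the 10 members passed the test in either floxed genotype, and Hes1 came nearest. The test was limma on log2(TPM + 1) over the 14518 genes, with Benjamini-Hochberg adjusted p under 0.05 as the threshold. For SOX11f/+ against wild type, 0 members rose and 0 fell, where 0.0344% of all genes passed. At an unadjusted p under 0.05 there was 1 member, Hes1, where 14.1% of all genes had such a p. In SOX11f/f against wild type, 0 members passed beside 0.0413% of all genes, and Hes1 (higher) and Dll1 (lower) had an unadjusted p under 0.05 beside 18.1% of all genes. Between the floxed genotypes 0 members passed beside 0.0138% of all genes, and 0 had an unadjusted p under 0.05 beside 2.05% of all genes. The count over all genes moved with the setting. For SOX11f/f against wild type it was 6, but 391 without SOX11f/+ replicate 1 and 397 without SOX11f/+ replicate 2, and for SOX11f/+ against wild type it was 5, but 25 and 397 without the same libraries. With all 6 libraries, a pseudocount of 0.1 gave 149 and 49 in these comparisons, and a replicate block gave 283 for SOX11f/f against wild type. The count of members was 0 in each of these fits.

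Several members had libraries that did not overlap between genotypes, and so did a large share of all genes. In SOX11f/+ against wild type, 2 members lay higher without overlap (Notch3 and Hes1) beside 17.1% of all genes, and 1 lay lower (Dll3) beside 28.9%. In SOX11f/f against wild type, 3 lay higher (Notch2, Hes1 and Hey1) beside 23.6% and 2 lower (Dll1 and Hes6) beside 30.7%. In SOX11f/f against SOX11f/+, 2 lay higher (Dll3 and Hes1) beside 15.3% and 3 lower (Notch3, Dll1 and Hes6) beside 13.7%. Median log2 differences of the members were -0.10, -0.14 and 0.06 in these 3 comparisons, and those of all genes -0.06, -0.04 and 0.01. The comparisons with wild type share the wild type libraries.

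**Figure D2:**
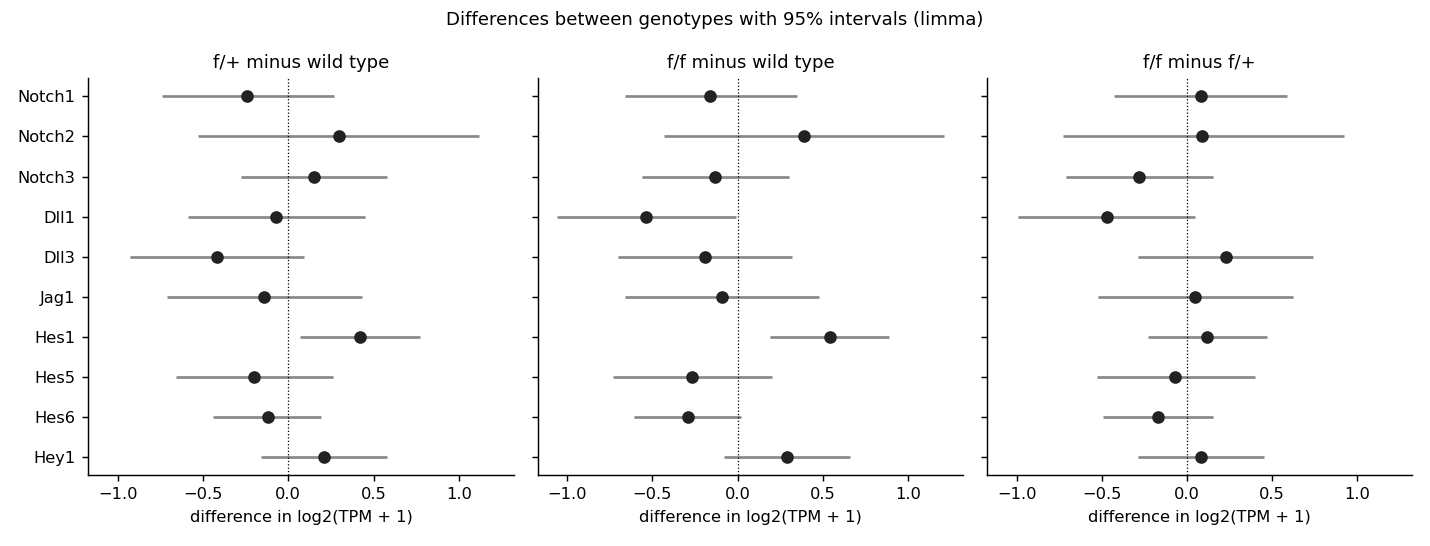
Difference in log2(TPM + 1) between genotypes for each member (points) with limma's 95% interval (lines), 1 panel per pairwise comparison. Hes1 lies right of 0 with its whole interval in both comparisons with wild type (0.42 and 0.54), Dll1 lies left of 0 in SOX11f/f against wild type (-0.54), and all other intervals include 0.

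Notch1 (chr2:26457903-26516663, GRCm38, minus strand), the main receptor of neural progenitors, was the most abundant receptor in every library. Its level was 36.4 and 24.2 TPM in wild type, 24.4 and 25.8 in SOX11f/+ and 23.5 and 29.9 in SOX11f/f. Wild type replicate 1 stood above the other 5 libraries, while wild type replicate 2 lay among them. The log2 difference from wild type was -0.24 (95% interval -0.74 to 0.27, limma adjusted p = 0.62) in SOX11f/+ and -0.16 (-0.66 to 0.35, limma adjusted p = 0.71) in SOX11f/f. Without wild type replicate 1 both differences were above 0, as the closing part gives.

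Notch2 (chr3:98013527-98150361, plus strand), a receptor known also from choroid plexus epithelium, spread most among the members. It was 12.9 and 10.02 TPM in wild type, 21.3 and 9.40 in SOX11f/+ and 16.4 and 14.2 in SOX11f/f, and its highest library was 2.26 times its lowest. The 3 highest libraries were the 3 with the most Ttr, in the same order. The log2 difference was 0.30 (-0.53 to 1.12, limma adjusted p = 0.71) in SOX11f/+ and 0.39 (-0.43 to 1.21, limma adjusted p = 0.56) in SOX11f/f. Without the 2 libraries with the most Ttr the values were -0.25 and 0.29, and the part of choroid plexus RNA in the Notch2 values was not tested.

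Notch3 (chr17:32120820-32166852, minus strand), a receptor known for its role in the mural cells of vessels and also made by progenitors, was 7.38 and 6.75 TPM in wild type, 8.47 and 7.48 in SOX11f/+ and 5.87 and 6.94 in SOX11f/f. SOX11f/+ libraries were the 2 highest and the other genotypes overlapped. The log2 difference of SOX11f/f from SOX11f/+ was -0.28 (limma adjusted p = 1.0). Summed over 8 mural markers, the SOX11f/f libraries held the lowest and the highest level of all 6, 137 and 288 TPM. The 3 receptors together summed to 56.7 and 40.9 TPM in wild type, 54.1 and 42.6 in SOX11f/+ and 45.7 and 51.0 in SOX11f/f. Notch1 made up 64.2% of that sum in wild type replicate 1 and least in SOX11f/+ replicate 1, where Notch2 reached 39.3%.

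Dll1 (chr17:15367354-15376872, minus strand), the ligand of newborn neurons and committed progenitors, had its lowest levels in SOX11f/f. It was 19.7 and 14.5 TPM in wild type, 17.7 and 14.6 in SOX11f/+ and 13.2 and 9.73 in SOX11f/f. Both SOX11f/f libraries lay under all 4 others. The log2 difference of SOX11f/f was -0.54 from wild type (SE 0.22, 95% interval -1.06 to -0.01, limma adjusted p = 0.27) and -0.47 from SOX11f/+ (SE 0.22, limma adjusted p = 1.0). Wild type and SOX11f/+ overlapped, with a difference of -0.07 (-0.59 to 0.45, limma adjusted p = 0.90). The SOX11f/f difference from wild type was -0.33 without wild type replicate 1 or without SOX11f/f replicate 2.

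Dll3 (chr7:28293553-28302238, minus strand), a divergent ligand that in the mouse acts inside the cell that makes it, was 20.4 and 13.4 TPM in wild type, 11.1 and 13.2 in SOX11f/+ and 13.9 and 14.7 in SOX11f/f. The SOX11f/+ libraries were the 2 lowest, and wild type replicate 1 stood alone at the top. The SOX11f/+ difference from wild type was -0.42 (SE 0.21, 95% interval -0.93 to 0.09, limma adjusted p = 0.43), and it was -0.13 without wild type replicate 1 and -0.70 without wild type replicate 2. Jag1 (chr2:137081456-137116644, minus strand), a ligand of the Jagged class, was 7.41 and 5.45 TPM in wild type, 4.94 and 6.53 in SOX11f/+ and 5.13 and 6.81 in SOX11f/f. Its 3 genotypes overlapped and its differences from wild type were -0.14 and -0.09 (limma adjusted p = 0.81 and 0.86).

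The ligands summed to 47.4 and 33.3 TPM in wild type and to 31.3 to 34.2 TPM in the 4 floxed libraries, so wild type replicate 1 was the library that stood apart. That library held the highest value of 6 of the 10 members and of 41.0% of all genes tested. Intermediate progenitors turn on Dll1 as they leave the stem cell state. Summed over 8 of their markers, wild type replicate 1 also stood highest at 873 TPM. The sum was 573 TPM in wild type replicate 2 and 437 to 467 in the floxed libraries. Of these sums, Neurod1 alone was 392 and 234 TPM in wild type and 157 to 182 in the floxed libraries. All 8 of these markers lay below wild type in both floxed genotypes, 0 of them past the threshold, and their part in the Dll1 levels was not tested.

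Hes1 (chr16:30064384-30067796, plus strand), a repressor whose pulsing level keeps progenitors dividing, was the member whose level ordered with the number of floxed alleles. It was 9.07 and 8.72 TPM in wild type, 12.9 and 11.7 in SOX11f/+ and 13.2 and 13.6 in SOX11f/f. All 4 floxed libraries lay above both wild type libraries, and both SOX11f/f libraries lay above both SOX11f/+ libraries. Of all 14518 genes, 273 were ordered upward in this way and 824 downward, and of the members 1 upward and 0 downward. Group means were 8.90 ± 0.247, 12.3 ± 0.827 and 13.4 ± 0.297 TPM (SD, n = 2 each). The log2 difference from wild type was 0.42 in SOX11f/+ (SE 0.15, limma adjusted p = 0.32) and 0.54 in SOX11f/f (SE 0.15, limma adjusted p = 0.15), or 1.34-fold and 1.46-fold on the TPM + 1 scale.

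Across 0, 1 and 2 floxed alleles the slope of Hes1 was 0.27 per allele (SE 0.07, 95% interval 0.10 to 0.44, limma adjusted p = 0.14). No member passed for this trend, beside 0.0138% of all genes, and 3 members had an unadjusted p under 0.05 beside 19.0% of all genes. The other 2 were Dll1 (slope -0.27, SE 0.11, limma adjusted p = 0.25) and Hes6 (slope -0.15, SE 0.06, limma adjusted p = 0.26). With the 4 floxed libraries set against the 2 of wild type, 1 member, Hes1, lay wholly above beside 13.3% of all genes, and 0 lay wholly below beside 21.0%.

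Hes5 (chr4:154960923-154962371, plus strand), whose upstream sequence with both RBPJ cores is printed above, is the Notch target most used as a readout in neural stem cells. Its level was 112 and 75.4 TPM in wild type, 86.8 and 73.8 in SOX11f/+ and 81.7 and 71.4 in SOX11f/f. Wild type replicate 1 was far above the rest and the genotypes overlapped. The difference from wild type was -0.20 (-0.66 to 0.26, limma adjusted p = 0.64) in SOX11f/+ and -0.27 (-0.73 to 0.20, limma adjusted p = 0.48) in SOX11f/f, opposite in sign to Hes1 with the difference between the genes not tested.

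Hes6 (chr1:91411483-91414038, minus strand), a relative that counteracts Hes1 and promotes neuronal differentiation, was 116 and 90.1 TPM in wild type, 98.0 and 89.5 in SOX11f/+ and 83.5 and 82.6 in SOX11f/f. Both SOX11f/f libraries lay under all 4 others. The SOX11f/f difference from wild type was -0.29 (SE 0.13, 95% interval -0.61 to 0.02, limma adjusted p = 0.30). It was -0.12 without wild type replicate 1 and -0.47 without wild type replicate 2.

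Hey1 (chr3:8663359-8667256, minus strand), a Notch-responsive repressor of progenitors and vessels, was 29.0 and 22.2 TPM in wild type, 31.0 and 28.2 in SOX11f/+ and 29.8 and 32.8 in SOX11f/f. Both SOX11f/f libraries lay above both wild type libraries, while SOX11f/+ overlapped both. The SOX11f/f difference from wild type was 0.29 (SE 0.16, 95% interval -0.08 to 0.66, limma adjusted p = 0.36). It was 0.48 without wild type replicate 1 and 0.11 without wild type replicate 2.

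The summed level of the 4 Hes and Hey transcripts was 266 and 196 TPM in wild type, 229 and 203 in SOX11f/+ and 208 and 200 in SOX11f/f. Hes1 formed 3.41% and 4.44% of that sum in wild type, 5.63% and 5.76% in SOX11f/+ and 6.34% and 6.79% in SOX11f/f. The genotypes did not overlap, and these shares rest on the Hes1 levels given above and on a sum that is mostly Hes5 and Hes6. Hey1 formed 10.9% and 11.3% in wild type, 13.6% and 13.9% in SOX11f/+ and 14.3% and 16.4% in SOX11f/f, also without overlap. For both shares an exact two-sided permutation test of the 4 floxed against the 2 wild type libraries gave p = 0.067, the smallest that 15 splits allow, and 0.34 after adjustment over the 10 shares tested. Hes5 (35.6% to 42.2%) and Hes6 (40.1% to 45.9%) had p = 0.20 each in the same exact permutation test.

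**Figure D3:**
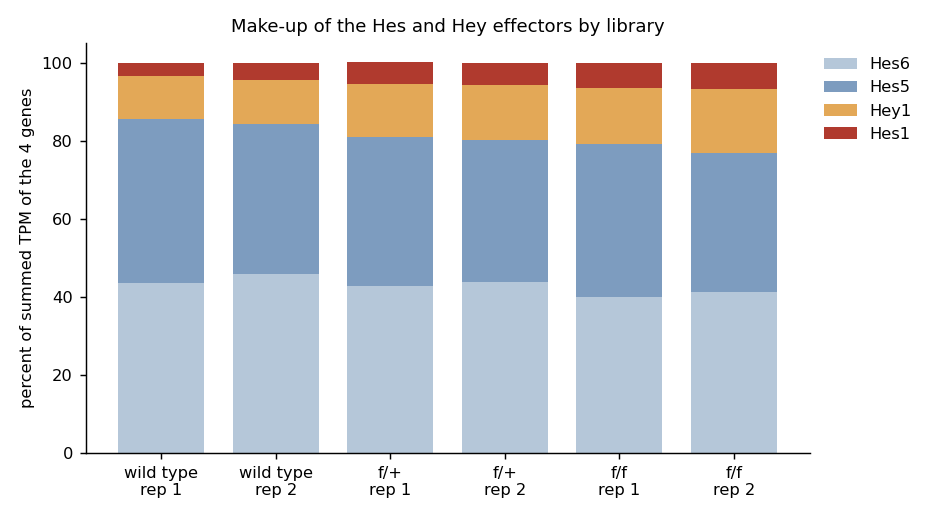
Share of the summed TPM of Hes1, Hes5, Hes6 and Hey1 (vertical axis, percent) held by each gene in each of the 6 libraries. Hes1 takes 3.41% and 4.44% in wild type against 5.63% to 6.79% in the floxed libraries, and Hey1 10.9% and 11.3% against 13.6% to 16.4%.

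Levels of cell type markers differed between the same libraries. The 8 dentate and hippocampal markers summed to 1616 and 1410 TPM in wild type, 1054 and 1196 in SOX11f/+ and 1098 and 1085 in SOX11f/f, lower in the floxed libraries without overlap. In each floxed genotype 7 of these 8 lay below wild type, with 0 past the threshold. Astrocytes and radial glia also make Hes1 and Hey1. Summed over 8 astrocyte markers, wild type libraries held 1605 and 1837 TPM, SOX11f/+ 2922 and 2616 and SOX11f/f 3022 and 3541. The floxed libraries were thus higher without overlap. Of these sums, Apoe alone was 830 and 1107 TPM in wild type, 2000 and 1666 in SOX11f/+ and 2115 and 2285 in SOX11f/f. All 8 astrocyte markers lay above wild type in both floxed genotypes, with 0 past the threshold. Their median log2 differences were 0.47 in SOX11f/+ and 0.53 in SOX11f/f. The 9 radial glia markers summed to 3350 and 3322 TPM in wild type, 4155 and 3782 in SOX11f/+ and 3585 and 3690 in SOX11f/f. The 8 microglia markers summed to 142 and 169 TPM in wild type and to 230 to 340 in the floxed libraries. The 8 choroid plexus and ependyma markers summed to 9.25 and 7.85 TPM in wild type, 11728 and 75.3 in SOX11f/+ and 6758 and 319 in SOX11f/f. All 8 lay above wild type in both comparisons, with 1, Ccdc153, past the threshold in each. The part of these cell types in the Hes1 levels was not tested. Without the 2 libraries with the most Ttr, the Hes1 difference from wild type was 0.36 in SOX11f/+ (limma adjusted p = 0.87) and 0.56 in SOX11f/f (limma adjusted p = 0.45). Over all alternatives run, the adjusted p of Hes1 ranged from 0.22 to 0.87 in SOX11f/+ and from 0.11 to 0.52 in SOX11f/f.

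**Figure D4:**
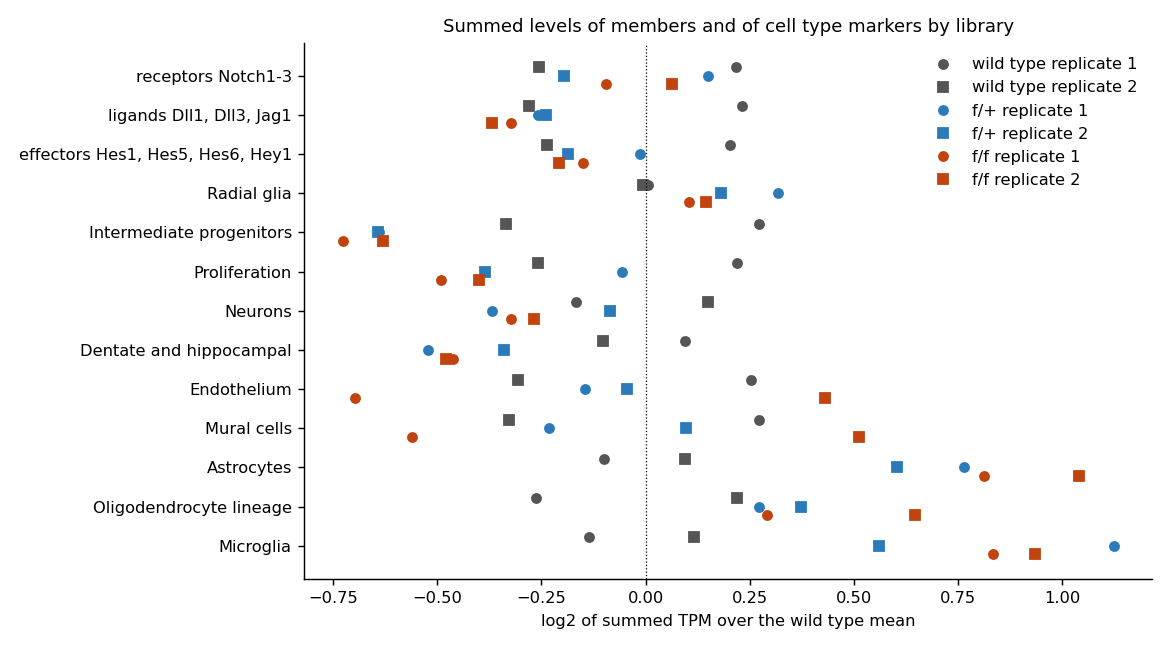
Summed TPM of the members by role and of each cell type marker list, as log2 of its ratio to the wild type mean (horizontal axis), in each of the 6 libraries (circles, replicate 1 and squares, replicate 2). The choroid plexus list is left out for its range. Astrocyte markers sum to 1605 and 1837 TPM in wild type and to 2616 to 3541 TPM in the floxed libraries. Of this, Apoe is 830 and 1107 TPM in wild type and 1666 to 2285 TPM in the floxed libraries. Intermediate progenitor markers sum to 873 and 573 TPM in wild type and to 437 to 467 TPM in the floxed libraries. Of this, Neurod1 is 392 and 234 TPM in wild type and 157 to 182 TPM in the floxed libraries.

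Of 66 other Notch pathway genes, 62 were tested and 0 passed in any comparison, while Hes2, Hes3, Neurog1 and Atoh1 were below 1 TPM on average. In SOX11f/+ against wild type, 0 of the 62 were higher and 3 lower at an unadjusted limma p under 0.05, and in SOX11f/f against wild type 3 were higher and 6 lower. In SOX11f/f against SOX11f/+, 1 was higher and 0 lower. Of all genes, 14.1%, 18.1% and 2.05% had such a p in these comparisons, so the counts among the 62 were at or below the general share. Their median log2 differences were -0.14, -0.04 and 0.04, and those of all genes -0.06, -0.04 and 0.01.

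Among receptors' nuclear partners, 11 of 14 lay below wild type in each floxed genotype, with 0 past the threshold and 6 of them lower without overlap. Of all genes, 59.8% lay below wild type in SOX11f/+ and 55.2% in SOX11f/f, and 28.9% and 30.7% were lower without overlap. Rbpj, the DNA-binding partner of all Notch receptors, was 42.2 and 31.7 TPM in wild type, 29.0 and 28.8 in SOX11f/+ and 23.8 and 26.7 in SOX11f/f. Its 3 genotypes did not overlap and ran opposite to Hes1. The SOX11f/f difference from wild type was -0.52 (SE 0.16, limma adjusted p = 0.17), and it was -0.32 without wild type replicate 1.

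Spen, a corepressor that binds RBPJ, had the same order. Its level was 33.8 and 31.1 TPM in wild type, 26.8 and 27.8 in SOX11f/+ and 23.4 and 25.2 in SOX11f/f. The slope of Spen was -0.20 per floxed allele (limma adjusted p = 0.14). Ep300, a histone acetyltransferase that Notch complexes recruit, was 24.6 and 23.2 TPM in wild type and 18.5 to 20.2 in the 4 floxed libraries (SOX11f/+ difference -0.34, limma adjusted p = 0.33).

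The 5 proneural genes tested, which Hes proteins repress, all lay below wild type in both floxed genotypes, with a median of -0.51 in SOX11f/f and 0 past the threshold. Neurod1, which drives differentiation of dentate granule neurons, was 392 and 234 TPM in wild type, 157 and 182 in SOX11f/+ and 173 and 161 in SOX11f/f. All 4 floxed libraries lay below both wild type libraries, and the difference was -0.84 in SOX11f/+ (SE 0.23, limma adjusted p = 0.26) and -0.86 in SOX11f/f (limma adjusted p = 0.15). Without wild type replicate 1 these differences were -0.47 and -0.49. Of the 8 intermediate progenitor markers above, 4 are also in the list of other pathway genes: the proneural Neurod1, Neurog2 and Insm1 and the glycosyltransferase gene Mfng.

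Hey2, the close relative of Hey1, was 2.69 and 2.92 TPM in wild type, 5.06 and 3.72 in SOX11f/+ and 5.2 and 5.08 in SOX11f/f. The floxed libraries lay above wild type without overlap, and the SOX11f/f difference was 0.69 (SE 0.21, limma adjusted p = 0.18). Of these genes, the smallest unadjusted p between the floxed genotypes belonged to Jag2, a Jagged ligand, at 18.9 and 18.1 TPM in SOX11f/+ and 24.4 and 22.3 in SOX11f/f (difference 0.32, limma adjusted p = 1.0). Psen2, a catalytic subunit of the gamma-secretase that cuts Notch, and Neurl1b, a ubiquitin ligase for ligand endocytosis, differed by 0.32 and 0.39 (limma adjusted p = 1.0 each). Nrarp, a target that feeds back on the pathway, differed by -0.23 (limma adjusted p = 1.0).

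**Figure D5:**
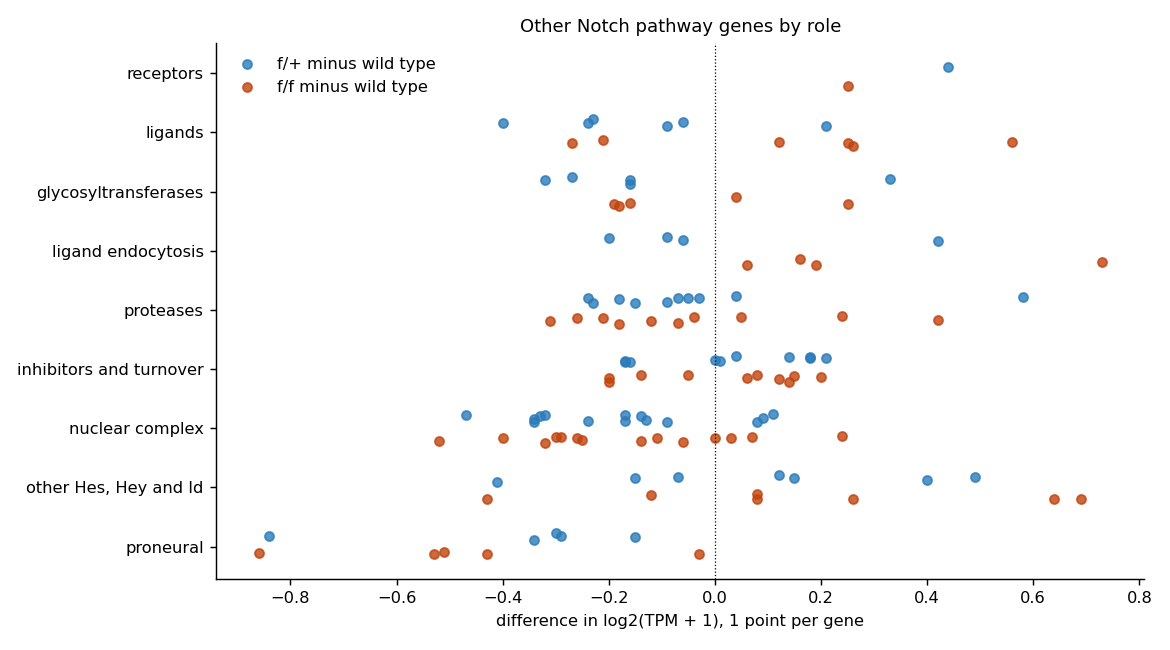
Log2 differences from wild type of the other Notch pathway genes by role (points, 1 per gene), for both floxed genotypes. The 5 proneural genes all lie below 0 in both comparisons, and 11 of 14 nuclear complex genes do.

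For the members other than Dll1, the gene with the most similar pattern over the 6 libraries was found among 11445 genes averaging 5 TPM or more, as the smallest root mean square difference of centred log2(TPM + 1) values. Hes1 was nearest to Nek7 (0.024), whose level was 10.7 and 10.2 TPM in wild type, 14.9 and 13.9 in SOX11f/+ and 15.8 and 16.6 in SOX11f/f. Hes5 was nearest to Otx1 (0.024), Hes6 to Slc35a4 (0.020) and Hey1 to Dock6 (0.016). Notch1 was nearest to Plbd2 (0.034), Notch2 to Cep128 (0.065) and Notch3 to Rassf2 (0.039). Dll3 was nearest to Unc5b (0.043) and Jag1 to Txnl4b (0.042). For scale, the SD of a member's own values ran from 0.15 (Notch3) to 0.41 (Notch2). Each gene is the closest of 11445 over only 6 libraries, and shared regulation was not tested.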

How the data were processed

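Per the labels, oligo(dT)-selected RNA was made into libraries with a TruSeq kit and read in pairs of 150 bases. The values are TPM, deposited by the authors as 1 table. The labels' design text names TopHat 2.0.11 for alignment to mm10 and Cufflinks 2.2.1, whereas RSEM is the tool in the submitters' processing notes. The use of strand in counting is not given in the sources used here. Notch1, Notch3, Dll1 and Hes5 overlap genes on the other strand and Notch2 overlaps 2 on its own, so their reads may not be separable. The depth behind a TPM is unknown.

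Here log2(TPM + 1), which understates changes of low genes, was fitted with limma 3.58.1 in R 4.3.3 (eBayes with trend), with a term per genotype over all 6 libraries, 3 residual degrees of freedom (4 for the trend) and a minimum mean of 1 TPM. The script was tested on simulated data, a check that set a pass mark for large changes only. It does not show that changes as small as those of the members would be found. Exact tests of 2 against 2 libraries cannot give p below 0.33, and of 2 against 4 none below 0.067. The members, the gene lists and the named genes (every member and, of the other pathway genes, the 4 smallest p of each pairwise comparison) were chosen with earlier results of these data known. Some results that this rule names are not reported here. Positions are from GENCODE vM21. Alternatives were no filter, a minimum of 5 TPM, a pseudocount of 0.1, rescaling by trimmed means of M-values (TMM), eBayes without trend, the compared genotypes alone, a replicate block, and libraries left out.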

Additional observations from a re-analysis of the deposited data

How the results depend on the processing

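The count of members past the threshold was 0 in all 4 comparisons under every alternative run. Of the other pathway genes, 1 passed in SOX11f/f against wild type with a replicate block (Neurl1a, 0.73, limma adjusted p = 0.044, named after its values were seen), against 0 in the main analysis. Of all 14518 genes, 283 passed with the block and 6 without it. Differences between replicates correlated at 0.21 for wild type with SOX11f/+, -0.09 for wild type with SOX11f/f and 0.35 for SOX11f/+ with SOX11f/f. These mixed values cannot decide whether replicate numbers mark pairs. The 2 libraries with the most Ttr were both replicate 1, and a batch shared by replicate number was not tested. Hes1 kept its direction against wild type under all alternatives, at 0.36 to 0.49 in SOX11f/+ and 0.52 to 0.57 in SOX11f/f when 1 library was left out. Counts over all genes moved far more, from 1 to 397 (5 in the main analysis) for SOX11f/+ against wild type, 3 to 491 (6) for SOX11f/f against wild type, 1 to 12 (2) between the floxed genotypes and 0 to 554 (2) for the trend. The 554 came without SOX11f/+ replicate 1 and the 491 without the 2 libraries with the most Ttr, and the cause was not tested.

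Some differences changed sign, Notch1 and Notch2 in SOX11f/+ (-0.24 and 0.30) among them, and the cause was not tested. With TMM rescaling Jag2 was 0.0036 in SOX11f/+ against wild type, and Nrarp 0.0031 in SOX11f/f against wild type and 0.0015 for the trend. Without the 2 libraries with the most Ttr, the SOX11f/+ values were -0.25 for Notch2, 0.03 for Jag1 and 0.04 for Neurl1b. The SOX11f/f values were then 0.01 for Notch1, 0.08 for Jag1 and 0.03 for Nrarp, the difference between floxed genotypes of Ep300 was -0.0022, and the slopes of Jag1 and Nrarp were 0.04 and 0.03. Leaving out 1 library at a time, SOX11f/+ against wild type ran from -0.52 to 0.05 for Notch1, -0.25 to 0.85 for Notch2, -0.28 to 0.14 for Dll1, -0.33 to 0.05 for Jag1, -0.48 to 0.08 for Hes5, -0.30 to 0.06 for Hes6 and -0.44 to 0.04 for Neurl1b. SOX11f/f against wild type ran from -0.44 to 0.13 for Notch1, -0.48 to 0.09 for Dll3, -0.28 to 0.10 for Jag1, -0.55 to 0.02 for Hes5 and -0.13 to 0.03 for Nrarp. Between the floxed genotypes the range was -0.09 to 0.25 for Notch1, -0.46 to 0.64 for Notch2, -0.13 to 0.22 for Jag1, -0.18 to 0.05 for Hes5, -0.12 to 0.09 for Neurod1 and -0.02 to 0.10 for Ep300. Slopes ran from -0.18 to 0.07 for Notch1, -0.12 to 0.01 for Notch3, -0.17 to 0.07 for Dll3, -0.13 to 0.05 for Jag1 and -0.07 to 0.04 for Nrarp. With 2 libraries per genotype, a left-out library leaves a lone one that is assumed to vary like the others.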
